A study of Homo sapiens with 16 samples.

Results

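THP1 is an established human monocytic leukemia line that carries the MLL-AF9 fusion, and it was sequenced here with each of 2 peptides. All genes that reached 10 CPM (a gene's count divided by the scaled size of its library) in either THP1 library were taken, which gave 9787 of the 23230 gene symbols in the files. Among them, 214 genes were at least 2-fold higher and 75 at least 2-fold lower with the peptide Y518R than with the peptide 3R. Per the labels, Y518R binds DPY30 and 3R, the control, does not. The THP1 3R group and the THP1 Y518R group each held 1 library, out of 16 libraries from 8 blood cell lines in the series, and cells of both groups grew in Advanced RPMI with 2.5% fetal bovine serum. Neither the peptide's dose nor the length of exposure is given in the sources used here. The fusion and the medium were the same in both THP1 groups, and each value comes from a single line. With 1 library per peptide there is no replicate check of any THP1 ratio, so ratios within THP1 are described without p-values. The range printed after a ratio is an exact 95% interval that covers counting error only. PCR copies of a molecule were not collapsed by identifiers and count as separate reads, so it may be too narrow even for that.

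DPY30 is a small shared subunit of the SET1/MLL complexes, where it docks on ASH2L and supports methylation of histone H3 at promoters and enhancers. MLL fusion proteins keep myeloid precursors in an immature state that still makes the proteases of neutrophil and monocyte granules. Monocytes that mature into macrophages lose those granule proteases, gain adhesion, scavenger and pattern recognition receptors, secrete matrix proteins, and can switch on the antiviral genes that interferons induce.

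The THP1 libraries held 33312593 gene counts with 3R and 31397123 with Y518R, within the range of 19354300 to 43003124 over the series. At that depth 3 counts, the most that a count of 0 allows, correspond to 0.0950 and 0.0993 CPM. Reads assigned to no gene made up 19.4% with 3R and 17.7% with Y518R, and 16808 and 16717 genes had a count. Of the 16 libraries, RAJI 3R stood apart with 44.7% of reads assigned to no gene, and the total calls against the other lines are therefore also given without RAJI.

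The monocytic label matched its markers. CD68, a lysosomal marker of macrophages, was at 422 CPM (3R) and 467 CPM (Y518R), CD33 at 55.1 and 64.2, the Fc receptor FCGR1A at 98.5 and 114, and the myeloid transcription factor SPI1 at 342 and 271. CD14, the lipopolysaccharide co-receptor that defines blood monocytes, was low, at 4.34 and 17.7 CPM. Markers of other blood cells stayed near 0 in both libraries. The 15 T cell markers summed to 12.3 and 12.5 CPM, with TRAT1 at 0 in both. The 15 erythroid and megakaryocyte markers summed to 12.4 and 12.5 CPM, and GYPB and PF4 were at 0 in both. The 15 B cell markers summed to 42.8 and 52.2 CPM, most of it from BANK1, which was at 28.2 and 32.1. The 15 markers of dendritic, mast and NK cells summed to 26.4 and 20.6 CPM, most of it from NKG7, and 8 of them had no count in either library. These libraries are bulk RNA, so fewer cells of a type and less RNA per cell cannot be told apart in any value below.

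The 214 higher genes were 2.19% and the 75 lower genes 0.766% of the genes measured. For 161 and 50 of them the whole counting interval lay beyond 2-fold, and 46 and 7 differed by at least 4-fold. Over all 9787 genes the median log2 ratio was 0.013, the middle 50% of genes ran from −0.16 to 0.19, and 88.1% lay within 0.5 of 0. The gene lists held 66 of the higher and 18 of the lower genes, most of them interferon-inducible genes, matrix proteins and phagocyte receptors on the higher side and granule proteins and genes of amino acid supply on the lower side. Functional classes put together after the ratios had been seen held 79 and 29. The members nearest the threshold were LY6E (90.4 and 181 CPM) and MIR155HG (6.68 and 13.4 CPM) among the higher genes and ATF4 and NUCB2 among the lower ones. NAIP, at 9.50 and 19.1 CPM, and NEB, at 23.5 and 11.7 CPM, fell just short of it. The threshold was applied to log2 ratios that include a prior count of 2, which were 0.9996 and −0.9995 for them.

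**Figure D1:**
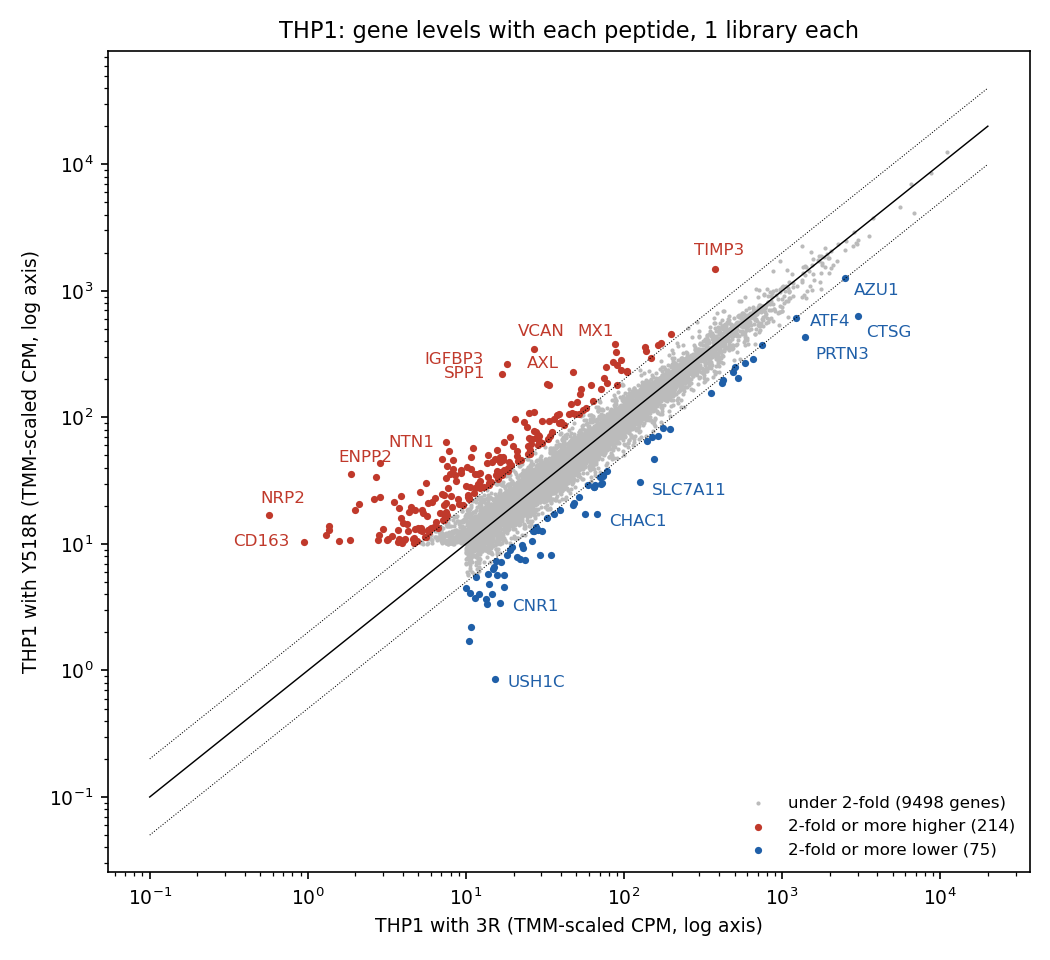
TMM-scaled CPM of the 9787 measured genes in THP1 with 3R (horizontal) and with Y518R (vertical), both on log axes, 1 library each. Red points are the 214 genes at least 2-fold higher with Y518R, blue points the 75 at least 2-fold lower, the solid line marks equal levels and the dotted lines 2-fold. NRP2, ENPP2 and NTN1 lie farthest above the line, and CTSG and PRTN3 lie far below it among genes with many reads.

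The genes that interferons induce were the largest group on the higher side. Of 42 measured members of the interferon response list, all 42 had a ratio above 1, 29 were at least 2-fold higher and none was 2-fold lower. Their median log2 ratio was 1.33, beside 0.013 over all measured genes, and all 46 entries summed to 2124 CPM with 3R and 4854 with Y518R. The list was drawn up with earlier results of these libraries known, so its direction is no independent evidence.

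IFI27, a small membrane protein, had the largest ratio of the list, at 2.63 and 22.5 CPM. Effectors that act on viral RNA and viral particles had the largest gains in CPM among the 29 members at least 2-fold higher. MX1, a GTPase that traps viral nucleocapsids, was at 87.9 CPM in the 3R library and 380 in the Y518R library, a ratio of 4.32 (4.14 to 4.5). OAS3, an oligoadenylate synthetase that activates the ribonuclease RNase L, was at 88.9 and 330 CPM, a ratio of 3.71 (3.55 to 3.87). OAS2, of the same family, was at 85.3 and 272 CPM. In every case the difference was far wider than counting error. IFI44L was at 8.26 and 46.1 CPM and IFIT1, which binds RNA that lacks a host cap, at 8.58 and 34.9. ISG15, a ubiquitin-like protein joined to other proteins during antiviral responses, was at 38.8 and 106 CPM. IFI6, which guards against viral replication at the endoplasmic reticulum, was at 95.4 and 284 CPM.

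Sensors of nucleic acid were higher as well. DDX58, which encodes the RNA sensor RIG-I, was at 16.4 and 48.3 CPM, and IFIH1, which encodes the related sensor MDA5, at 38.9 and 89.9. IFI16, a DNA sensor, was at 33.5 and 93.0 CPM, a ratio of 2.78 (2.58 to 2.98). MNDA, a myeloid gene of the same family, was lower with Y518R, at 163 and 70.9 CPM.

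Several signalling genes upstream differed less. STAT2, a transcription factor that carries the interferon signal, was at 83.9 and 98.8 CPM, IRF9, which binds DNA with it, at 56.5 and 62.6, and IRF1 at 27.4 in both libraries. A separate list holds interferons, their receptors, Toll-like receptors and signalling proteins such as TMEM173, MAVS and TBK1, but not DDX58 or IFIH1. None of its 7 measured genes was 2-fold different, and their median log2 ratio was 0.018. Of the interferon genes themselves, IFNB1 had 1 and 0 counts, and IFNA1 and IFNA2 had 0 in both libraries. Counts of other interferon genes are not given here.

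A further 8 higher genes outside that list are known to be induced by interferons, a class put together after the ratios had been seen. They are GBP2, IFI30, LGALS3BP, PRIC285, RNF213, EIF2AK2, SP110 and UBE2L6, with log2 ratios of 1.05 to 2.02. IFI30, a lysosomal thiol reductase of antigen processing, was at 27.1 and 110 CPM. RNF213, a large ubiquitin ligase, was at 104 and 232 CPM.

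The response element that interferon-activated factors bind can be read in these promoters, and the stretches shown are those with a match upstream of the start site in the higher members of the list with the most reads. Capitals mark a core of the interferon-stimulated response element, GAAA followed by any 2 bases and GAAA, searched on both strands, in RefSeq promoters of GRCh38.p14 running from 250 bases before to 50 bases after each start. The stretches are OAS3 (chr12:112938296-112938375, plus strand), IFI6 (chr1:27672241-27672383, minus strand), PARP14 (chr3:122680775-122680838, plus strand) and SAMD9 (chr7:93118071-93118150, minus strand), each written 5′ to 3′ on the strand of its gene.
OAS3: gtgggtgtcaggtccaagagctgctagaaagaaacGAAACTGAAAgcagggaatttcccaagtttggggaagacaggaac
IFI6: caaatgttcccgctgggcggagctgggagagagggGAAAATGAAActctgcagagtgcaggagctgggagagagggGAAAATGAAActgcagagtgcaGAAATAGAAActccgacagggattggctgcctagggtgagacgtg
PARP14: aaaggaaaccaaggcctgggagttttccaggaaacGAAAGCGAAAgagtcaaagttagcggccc
SAMD9: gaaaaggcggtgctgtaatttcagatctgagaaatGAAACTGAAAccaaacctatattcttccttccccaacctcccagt
The IFI6 stretch holds 3 copies within 143 bases. PARP14, an ADP-ribosyltransferase, was at 96.3 and 238 CPM, and SAMD9, an antiviral restriction factor, at 54.7 and 114. Of the 29 list members that were at least 2-fold higher, 23 had a RefSeq promoter, and 15 of those (65.2%) held the motif. It was also in 5 of 10 promoters of measured members below 2-fold, in 25 of 169 promoters (14.8%) of all higher genes, in 1 of 57 of all lower genes, and in 996 of 27305 promoters (3.65%) overall. The motif thus occurred in list members on either side of the threshold. A match is a run of letters and does not show that a factor binds there.

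**Figure D2:**
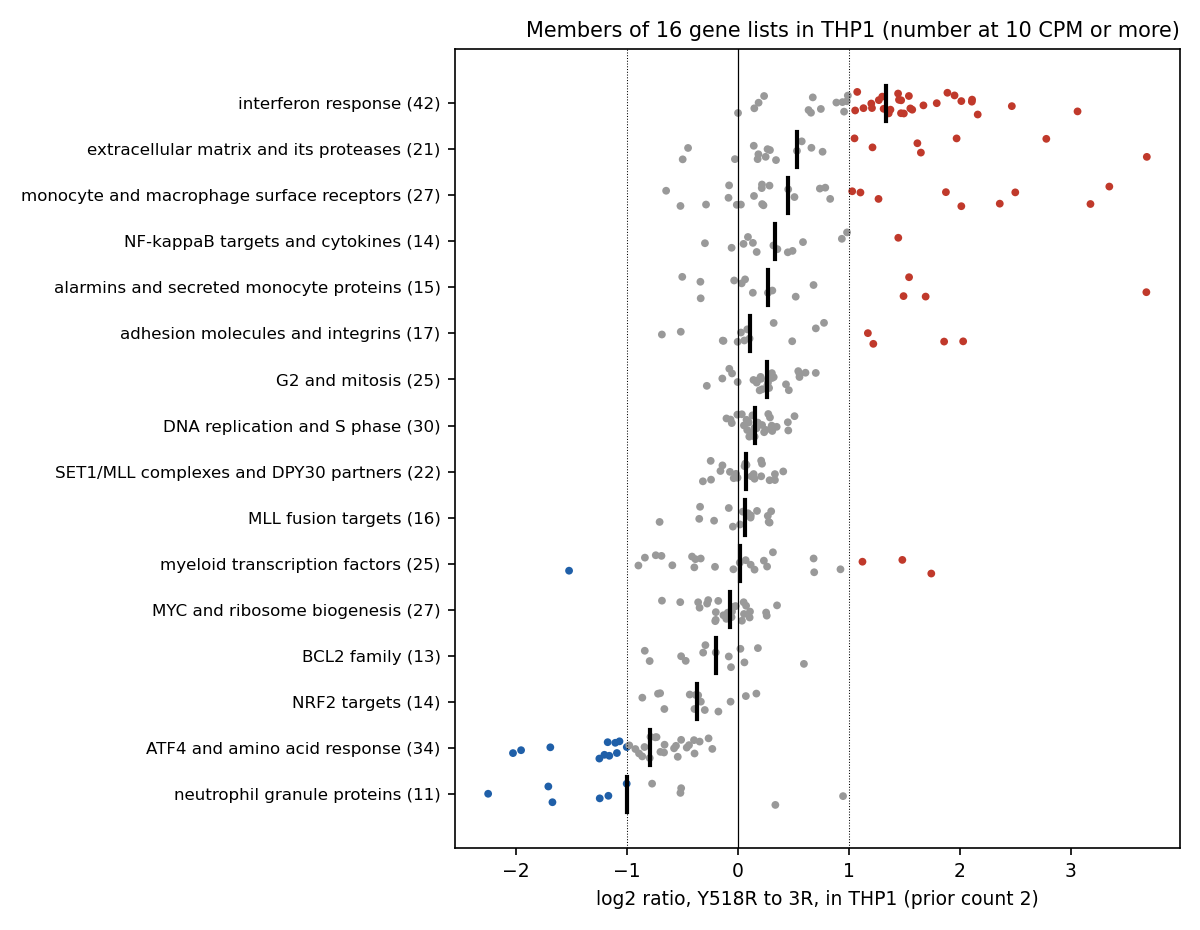
Log2 ratio of Y518R to 3R in THP1 for each measured member (point) of 16 gene lists, with the number measured in parentheses and a black bar at the median. Red points are at least 2-fold higher and blue points at least 2-fold lower. The interferon list lies wholly at or above 0 and the ATF4 list wholly below 0. Medians are 0.27 for G2 and mitosis, 0.15 for replication, 0.067 for MLL fusion targets and 0.072 for SET1/MLL subunits. None of the measured members of those lists is 2-fold different.

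Matrix proteins and guidance molecules held several of the largest ratios. NRP2, a co-receptor for semaphorins and for vascular endothelial growth factors, was at 0.570 CPM (18 counts) with 3R and 16.8 CPM (509 counts) with Y518R, a ratio of 29.6 (18.5 to 50.3). VCAN, the proteoglycan versican that monocytes and macrophages secrete, was at 27.0 and 348 CPM, a ratio of 12.9 (12 to 13.9). NRP2 was scarce with 3R, which gives it a wide interval, while VCAN had 852 counts there. SPP1, the matrix cytokine osteopontin, was at 17.0 and 219 CPM, a ratio of 12.9 (11.8 to 14.1). TIMP3, an inhibitor of metalloproteinases that stays bound to matrix, was at 376 and 1477 CPM, a ratio of 3.92 (3.84 to 4.0). TIMP3 thus had a smaller ratio than VCAN and SPP1 and a narrow interval.

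Of 21 measured members of the matrix list, 7 were at least 2-fold higher and none lower, with a median log2 ratio of 0.53. All 36 entries of the list summed to 2158 and 4441 CPM. COL4A2, a basement membrane collagen chain, was at 7.85 and 54.4 CPM, and its partner chain COL4A1 was at 33.7 and 37.2. These chains share a promoter region in the genome, yet their ratios were far apart. COL6A1 and COL6A2, chains of the microfibrillar collagen that macrophages can make, were at 53.7 and 169 CPM and at 30.3 and 93.3 CPM. MMP14, a membrane-bound metalloproteinase, was at 197 and 456 CPM, a ratio of 2.32 (2.25 to 2.39). CD44, the hyaluronan receptor, was at 200 and 339 CPM, below 2-fold. ADAMTS15, a proteinase that cleaves versican, was at 7.44 and 64.1 CPM.

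A few transcripts typical of fibroblasts and endothelium appeared with Y518R at low level beside the matrix genes. COL3A1 had 0 counts with 3R and 175 with Y518R (5.79 CPM), and COL1A2 had 0 and 34 counts. The endothelial receptor KDR had 13 and 242 counts. Summed over 14 fibroblast and endothelial markers the levels were 160 and 188 CPM, most of it from PECAM1, which monocytes express too, at 154 and 166. Defining markers of those cells were at or near 0, with no count for DCN and CDH5 in either library and 0 and 2 counts for LUM.

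Guidance cues and their receptors formed a small class with large ratios. NTN1, which encodes the secreted cue netrin, was at 2.85 and 43.3 CPM, a ratio of 15.2 (12.3 to 19). EPHB1 was at 8.23 and 39.2 CPM and EPHB3, another ephrin receptor, at 3.51 and 21.4. SEMA3D, a secreted semaphorin, was at 3.89 and 23.9 CPM and PLXNA4, a semaphorin receptor, at 1.36 and 12.9. The list of semaphorin, plexin and neuropilin genes as a whole did not share this. Only NRP2 of its 14 measured members was 2-fold different, and the median log2 ratio was 0.20. NRP1, the other neuropilin, was at 11.0 and 21.9 CPM and just missed 2-fold.

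Growth factor and signalling lipid genes reached ratios of the same size. ENPP2, which encodes autotaxin, the secreted enzyme that makes lysophosphatidic acid, was at 1.87 and 35.4 CPM, a ratio of 19 (14.6 to 25.1). LPAR5, a receptor for that lipid, was at 7.22 and 24.2 CPM. The enzyme and a receptor for its product were thus both higher with Y518R. IGFBP3, a secreted binder of insulin-like growth factors, was at 18.3 and 264 CPM, a ratio of 14.4 (13.3 to 15.7). SFRP1, a secreted WNT antagonist, was at 28.6 and 73.2 CPM, and JAG1, a NOTCH ligand, at 7.34 and 16.1.

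Receptors of mature phagocytes were higher in part. Of 27 measured monocyte and macrophage receptors, 9 were at least 2-fold higher, none was 2-fold lower, and the median log2 ratio was 0.45. ITGAM, the integrin chain CD11b of monocytes and neutrophils, was at 11.1 and 57.4 CPM, a ratio of 5.16 (4.60 to 5.81). ITGB2, the beta chain that pairs with it, was at 963 and 1714 CPM, below 2-fold. CD14 was at 4.34 and 17.7 CPM as given above, a ratio of 4.09 (3.38 to 4.97). CD163, the hemoglobin scavenger receptor of tissue macrophages, was at 0.95 and 10.3 CPM, a ratio of 10.9 (7.46 to 16.4). All 4 were higher with Y518R, and only ITGB2 stayed under 2-fold.

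CD86, a costimulatory ligand for T cells, was at 1.99 and 18.6 CPM. CLEC7A, the beta-glucan receptor dectin, was at 1.84 and 10.7 CPM. SIGLEC1, the sialic acid receptor of macrophages, was at 19.1 and 70.1 CPM. FCER1G, the signalling chain of Fc receptors, was at 138 and 333 CPM, while its counterpart TYROBP was at 160 and 186. AXL, a receptor kinase that recognises apoptotic cells, was at 47.6 and 227 CPM, a ratio of 4.77 (4.51 to 5.04). Other receptors differed little or lay in the other direction: TLR2 was at 83.9 and 83.3 CPM, TLR4 at 35.7 and 33.8, and CXCR4 at 50.1 and 32. The difference was therefore not shared by all surface receptors of the lineage.

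Enzymes of the respiratory burst and of lipid mediators followed the receptors only in places. CYBB, the catalytic subunit of the phagocyte NADPH oxidase, was at 23.2 and 92.7 CPM, a ratio of 4.0 (3.68 to 4.34). Its partner subunit CYBA was at 603 and 543 CPM. ALOX5, which starts leukotriene synthesis, was at 10.7 and 39.1 CPM, whereas ALOX5AP, the protein that presents its substrate, was at 23.7 and 13.3. Of 13 measured genes on that list, CYBB and ALOX5 alone were 2-fold different.

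Secreted and procoagulant proteins included several typical of macrophages. GPNMB, a glycoprotein of lysosome-rich macrophages, was at 76.9 and 249 CPM, and APOE, the lipid carrier they secrete, at 17.1 and 48.3. F3, tissue factor, was at 17.1 and 46.4 CPM, and THBD, the anticoagulant receptor thrombomodulin, at 104 and 228. Genes for and against clotting were thus both higher. The complement genes C3 and CFP were at 17.3 and 38.2 CPM and at 26.9 and 78.6 CPM. The alarmin genes S100A8 and S100A9, abundant in blood monocytes, were at 38.1 and 26.9 CPM and at 95.9 and 93.7 CPM. TNF, a cytokine under NF-kappaB control, was at 25.1 and 68.4 CPM and was the single 2-fold different gene of 14 measured on the NF-kappaB list, whose median log2 ratio was 0.34. NFKBIA, the inhibitor that NF-kappaB induces, was at 83.9 and 89.3 CPM.

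Among transcription factors of the lineage, 3 of 25 measured were at least 2-fold higher and 1 was lower. MITF was at 7.25 and 20.4 CPM, MAF, a macrophage factor, at 3.42 and 11.6, and AHR, the aryl hydrocarbon receptor, at 18.4 and 40.1. KLF2, which restrains monocyte activation, was at 21.9 and 7.58 CPM. The factors that set the myeloid lineage differed less, with CEBPA at 557 and 585 CPM, IRF8 at 529 and 535, and MYB at 489 and 375.

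**Figure D3:**
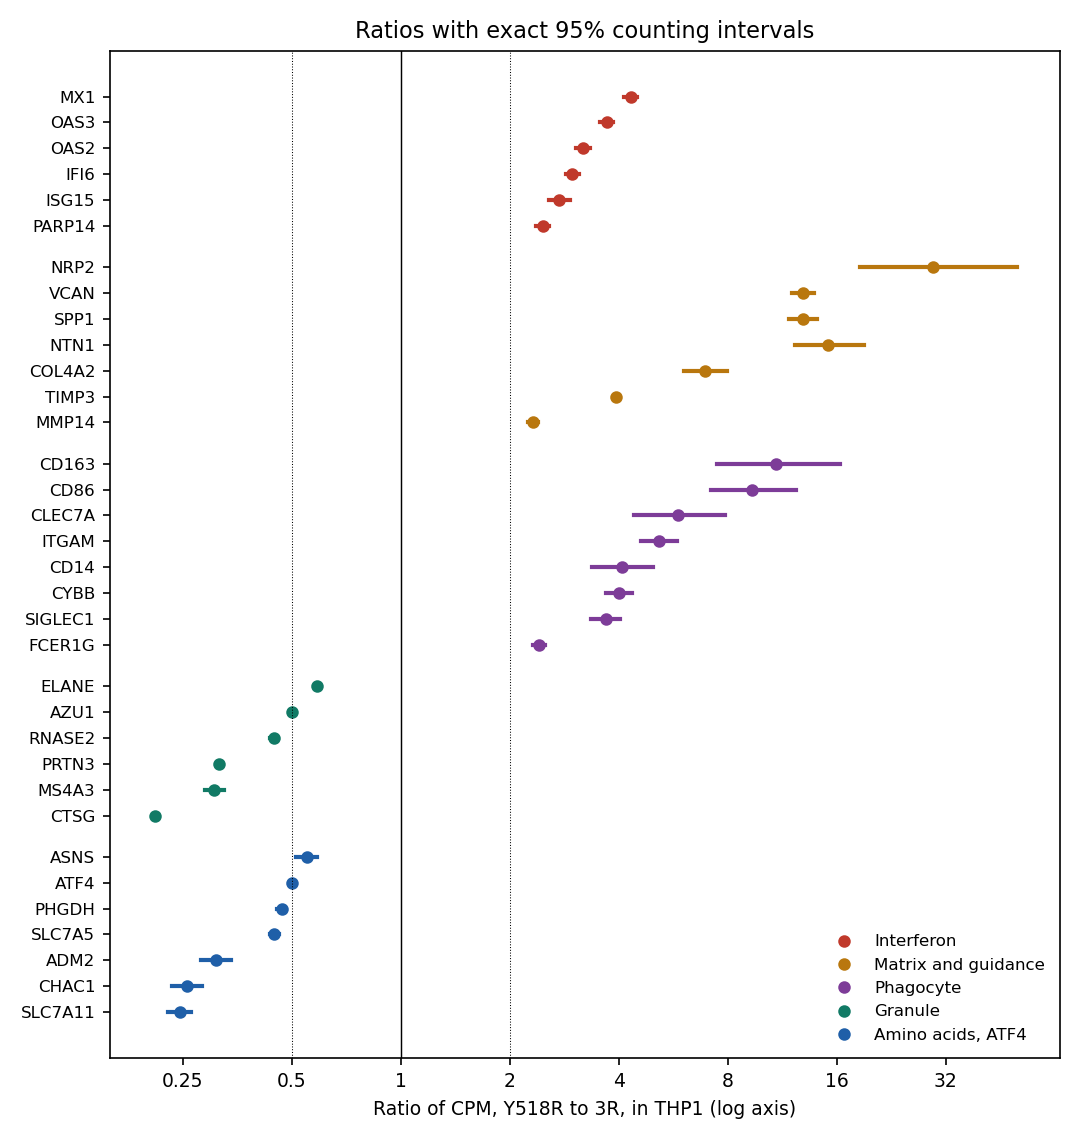
Ratio of CPM with Y518R to CPM with 3R in THP1 on a log axis for 34 genes in 5 groups; points are ratios, bars are exact 95% counting intervals, and dotted lines mark 2-fold in each direction. Intervals narrower than the point are hidden by it; NRP2 has the widest interval, from 18.5 to 50.3, and CTSG and SLC7A11 lie lowest on the left.

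Granule proteases were lower with Y518R. Of 11 measured neutrophil granule genes, 6 were at least 2-fold lower and none 2-fold higher, with a median log2 ratio of −1.0. All 18 entries of the list summed to 12301 and 5683 CPM. CTSG, the serine protease cathepsin G, was at 3027 CPM with the control and 635 with Y518R, 4.77-fold lower (4.69 to 4.84). PRTN3, proteinase 3 of the same granules, was at 1388 and 435 CPM, 3.19-fold lower (3.13 to 3.25). AZU1, the antimicrobial protein azurocidin, was at 2513 and 1254 CPM, 2.0-fold lower (1.98 to 2.03) and close to the threshold. ELANE, neutrophil elastase, was at 1768 and 1034 CPM, below 2-fold. AZU1, PRTN3 and ELANE lie side by side in the genome, and their ratios differed from each other beyond counting error.

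MS4A3, a membrane protein of granulocyte and monocyte precursors, was at 154 and 47.1 CPM, 3.27-fold lower (3.09 to 3.48). RNASE2, an antiviral ribonuclease of eosinophils and monocytes, was at 652 and 290 CPM, and the near-identical ECRP at 36.2 and 17.3, so that reads of the 2 copies cannot be told apart with certainty. LYZ, lysozyme, and SRGN, the granule proteoglycan, were lower by less than 2-fold, SRGN with a log2 ratio of −0.51. SERPINB10, a protease inhibitor of myeloid cells on this list, lay the other way at 21.5 and 41.6 CPM.

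Genes of amino acid supply under the transcription factor ATF4 were lower as a group. ATF4 drives amino acid transporters, serine and asparagine synthesis and aminoacyl-tRNA synthetases when amino acids run short or the endoplasmic reticulum is stressed. All 34 measured members of the list were below a ratio of 1, with log2 ratios of −2.03 to −0.23 and a median of −0.79, and 11 were at least 2-fold lower. All 40 entries summed to 9670 and 5886 CPM. ATF4 itself was at 1219 and 608 CPM, 2.0-fold lower (1.97 to 2.04) and at the threshold, which it missed when scaled by total counts alone (log2 ratio −0.98).

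SLC7A11, the cystine importer, was at 126 and 30.8 CPM, 4.09-fold lower (3.80 to 4.39). CHAC1, which degrades glutathione, was at 67.5 and 17.3 CPM, 3.89-fold lower (3.53 to 4.29). ADM2, a secreted peptide of the adrenomedullin family, was at 56.3 and 17.4 CPM. These were the members with the lowest ratios. The transporter SLC7A5, which takes up large neutral amino acids, was at 419 and 188 CPM. PHGDH and PSAT1, which carry out successive steps of serine synthesis, were at 486 and 228 CPM and at 355 and 157 CPM. ASNS, asparagine synthetase and a standard ATF4 target, was at 77.1 and 42.4 CPM, below 2-fold.

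DDIT3, the stress-induced factor CHOP, was at 70.8 and 33.7 CPM, and TRIB3, which feeds back on ATF4, at 196 and 103. The aminoacyl-tRNA synthetases on the list were lower by smaller ratios, from GARS at 397 and 229 CPM to SARS at 194 and 165. ASS1, an arginine synthesis enzyme that is not on the list, was at 523 and 206 CPM, 2.54-fold lower (2.47 to 2.62).

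The core of the amino acid response element, TGATGNAA searched on both strands, was rare in these promoters and is shown in the only lower list member that held it. The stretch is CHAC1 on GRCh38.p14 from RefSeq (chr15:40953227-40953304, plus strand), with the match in capitals, read on the opposite strand.
CHAC1: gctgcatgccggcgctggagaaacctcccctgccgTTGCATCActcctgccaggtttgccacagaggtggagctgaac
Of the 8 promoters found for the 11 lower members, 1 held the motif, beside 6 of 19 for measured members below 2-fold and 3.67% of all promoters. The lower members thus did not carry it more often than the members below 2-fold in this window.

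A few lower genes stood outside both groups. USH1C, a scaffold protein of microvilli, was at 15.3 and 0.860 CPM, 17.8-fold lower (12 to 27.5), the largest ratio on the lower side. CNR1, a cannabinoid receptor, was at 16.4 and 3.44 CPM, and PTGER2, a prostaglandin receptor, at 10.7 and 2.22. BMP8B, a secreted morphogen, was at 579 and 270 CPM. FTL, the ferritin light chain and an NRF2 target, was at 6843 and 4152 CPM, below 2-fold, on a list of which 2 of 14 measured members were above a ratio of 1 (median log2 ratio −0.37). The heavy chain, FTH1, was at 444 and 499 CPM.

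The machinery that the peptide is directed at, and measured genes usually tied to the fusion, differed by under 2-fold at the RNA level. DPY30 was at 33.7 CPM (3R) and 27.1 CPM (Y518R), and ASH2L, its docking partner, at 202 and 193. No member of the 22 measured SET1/MLL subunits and partners was 2-fold different, with log2 ratios of −0.32 to 0.41. None of 16 measured MLL fusion targets was 2-fold different either, with CDK6 at 555 and 672 CPM, MEF2C at 168 and 205, and FLT3 at 107 and 65.7. HOXA9, on the same list, was at 13.0 and 10.2 CPM, and MEIS1, under the 10 CPM minimum, had 2 and 6 counts. Replication genes had a median log2 ratio of 0.15 over 30 genes and G2 and mitosis genes one of 0.27 over 25, with none 2-fold different; TOP2A was at 586 and 893 CPM. Cholesterol synthesis genes had a median of 0.0085 over 23 genes, and MYC and ribosome biogenesis genes one of −0.075 over 27. MYC itself was at 197 and 122 CPM, a ratio of 0.622 (0.597 to 0.648).

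Whether the peptide difference in THP1 differed from that in the rest of the series was tested with its single pair. The peptide difference in THP1 was compared with that in the other 7 lines by edgeR's quasi-likelihood test with the line as block. The spread came from those 7 lines, with 6 residual degrees of freedom, and the lone THP1 pair was assumed to vary like them. Nothing in the labels says that a line's libraries were separate cultures, so part of that spread may be technical. The expression filter kept genes with enough reads in a single library, so genes read almost only in THP1 were tested too. Such genes have next to no comparison in the other lines, and the calls below include them. A filter over peptide groups, given further below, called fewer genes in both directions. The log2 difference was higher in THP1 for 302 genes (1.75% of 17235 tested) and lower for 147 (0.853%) at an adjusted p under 0.05. Without adjustment, 1153 and 838 genes had a p under 0.05. Of the genes at least 2-fold different in THP1, 146 of the 214 higher and 39 of the 75 lower were among those calls in the same direction, and none in the opposite one. That overlap rests on the same THP1 ratios that chose the genes, so nothing is read from it.

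Among the groups, 30 of 46 tested interferon genes were called higher in THP1 than in the other lines and none lower, 25 of 40 ATF4 list genes were called lower and none higher, and 6 of 17 granule genes were called lower. On the matrix list 6 of 35 were called higher. On the receptor list 4 of 30 were called higher and 1, CXCR4, lower. Over all genes tested, 1.75% were called higher and 0.853% lower. These calls, too, have a single pair of libraries as their THP1 arm. The lists were drawn up with earlier results of these libraries known, so the list counts are no independent evidence. Called matrix genes VCAN, TIMP3, COL4A2, COL6A1 and COL6A2 had at most 1.06, 2.24, 8.03, 2.33 and 4.83 CPM in any other library. For them the other lines give little to compare. On the granule list, 11 genes were measured in MOLM13, 5 in RS4-11 and 3 in K562. In KOPN8, RAJI, JURKAT and P493-6 it was 1 gene each, so little could be compared there either. The list counts are not given without RAJI, in which the interferon list had a median log2 ratio of −0.55. For IFI44L the tested difference of 3.82 exceeded THP1's own log2 ratio of 2.47, with the other lines estimated at −1.34. FTL, which was below 2-fold in THP1 and is named after its value was seen, differed by −0.77 ± 0.17 (SE, edgeR adjusted p = 0.00466) and had 177 to 1917 CPM in the other lines.

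For single genes that were picked by their THP1 ratio, the levels in the other lines are given without a test. VCAN, SPP1 and TIMP3 were hardly expressed elsewhere, with at most 1.06, 0.594 and 2.24 CPM in any other library, and IGFBP3 reached at most 3.44. For these genes the other lines give no peptide ratio to set beside that of THP1. NRP2 reached 10 CPM in 1 other line, P493-6, at 204 and 236 CPM, and ENPP2 in the same line at 18.5 and 18.3. MX1 was at 132 and 143 CPM in P493-6, and OAS3 at 93.6 and 92.9 in KOPN8 and at 34.5 and 36.4 in JURKAT. CYBB was at 128 and 118 CPM in RAJI and at 209 and 217 in P493-6. None of these pairs came near 2-fold. ATF4 was between 443 and 1389 CPM in the other lines, with log2 ratios of −0.041 to 0.33.

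MOLM13 also carries the MLL-AF9 fusion. There 39 genes were at least 2-fold higher and 22 lower among 9616 measured. Of THP1's 214 higher genes, 103 were measured in MOLM13, 3 were at least 2-fold higher there and 1 lower, and the median log2 ratio was −0.00063. Of THP1's 75 lower genes, 46 were measured, 1 was 2-fold higher and 2 were lower, with a median of −0.15. The interferon list had a median of −0.010 over 22 measured genes in MOLM13, the granule list 0.25 over 11, and the ATF4 list −0.14 over 38. In MOLM13, CTSG was at 654 CPM (3R) and 790 (Y518R), PRTN3 at 138 and 167, and ITGAM at 37.0 and 39.9. SLC7A11, at 113 and 63.3 CPM, and CHAC1, at 77.7 and 47.9, were lower with Y518R in MOLM13 too, by less than 2-fold.

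Outside the MLL-AF9 lines, at least 2-fold differences numbered 107 in RAJI, 3 in KOPN8, 2 in K562 and 0 in RS4-11, JURKAT and P493-6. The RAJI differences were mostly lower values (101 of 107), and the interferon list had a median of −0.55 there, over 23 measured genes. In RS4-11, KOPN8, K562, JURKAT and P493-6 its median was between −0.088 and 0.076. Without RAJI, the edgeR test called 382 genes higher and 218 lower in THP1 than in the remaining lines, and 445 of the 449 calls made with RAJI were among them.

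**Figure D4:**
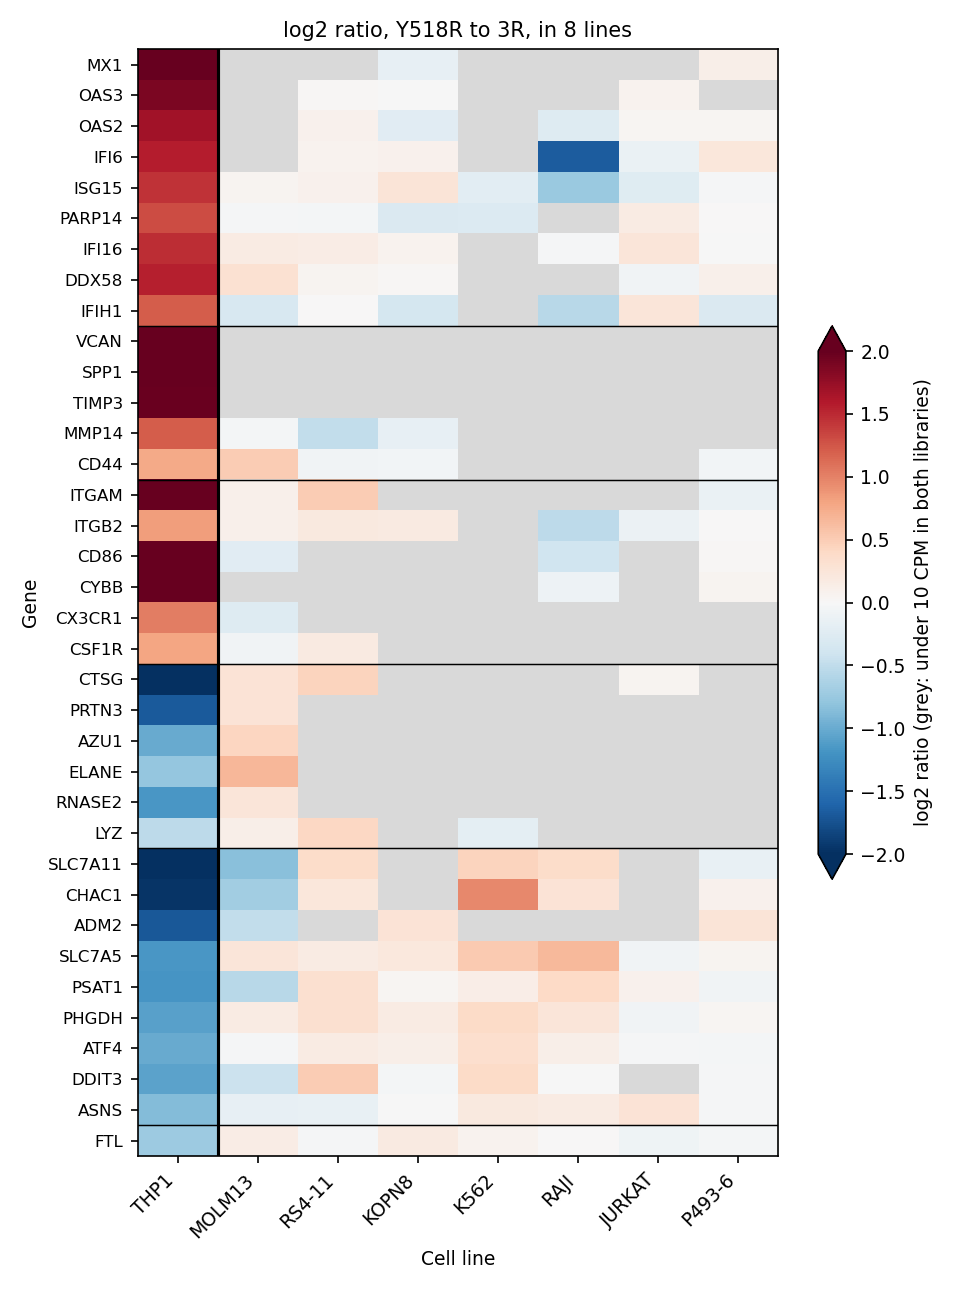
Log2 ratio of Y518R to 3R for 36 genes (rows, grouped as interferon, matrix, phagocyte, granule, ATF4 and ferritin genes) in the 8 lines (columns), 1 library per peptide and line; colours saturate at 2 in each direction and grey marks genes under 10 CPM in both libraries of a line. All 36 genes are measured in THP1 and 28 in MOLM13, and outside THP1 the only measured value past 1 in size is that of IFI6 in RAJI (−1.66).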

How the data were processed

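The authors deposited whole-number read counts per gene, not normalized, for 23230 symbols per library, made from polyadenylated RNA with a NEBNext Ultra kit per the labels' protocols. The submitters' processing notes list HTSeq 0.6.1 and TopHat2 2.1.1, also CASAVA 1.8.4, DESeq and DESeq2 3.0, without roles, and both GRCh38 and hg19. No source used here gives the strand setting, so overlapping genes and near-identical copies (ANXA2 and ANXA2P2, HLA and histone genes) are uncertain. The 5 entries that name no gene were left out.

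Counts were scaled by TMM over all 16 libraries in edgeR 4.0.16 (R 4.3.3), and log2 ratios used a prior count of 2. Ratios with exact 95% counting intervals came from the 2 THP1 counts. The comparison with the other lines used edgeR's quasi-likelihood test (line, peptide, and THP1 with Y518R as terms; filterByExpr at a minimum count of 10; Benjamini-Hochberg adjustment over 17235 genes). Its SE is the log2 difference divided by the square root of F. limma 3.58.1 and DESeq2 1.42.0 were alternatives. The THP1 libraries differed by far more than sampling noise (chi-square of 61.9 per degree of freedom) and are separate libraries.

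Members and lists were chosen with earlier results of these data known. Genes are named if they were markers, had the 25 largest or smallest ratios or the 15 largest CPM differences, lay at the 2-fold threshold, or were list members at least 2-fold different, with partner genes beside them. DPY30, ASH2L, MYC, HOXA9 and MEIS1 are named as well. Functional classes outside the lists, and the partner genes named below 2-fold, were chosen after the values were seen.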

Additional observations from a re-analysis of the deposited data

Results flagged for a closer look

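In each of 24 values compared over the 8 lines, a line was singled out where its gap to the nearest other line was large against the whole range. Chance singles out about 1 in 20 such groups, and 6 of the 24 were singled out here. The values flagged for THP1 share a single pair of libraries, and the gene lists were drawn up with earlier results known. They are therefore not independent, and no excess over chance is read from their number. THP1 stood apart with its 214 genes at least 2-fold higher, its interferon median of 1.33, its ATF4 list median of −0.79, its NRF2 target median of −0.37 and its p53 target median of 0.24 (all log2 ratios). RAJI stood apart with a hypoxia and glycolysis median of −0.57. The p53 target value was small, with BTG2 (36.0 and 97.8 CPM) the single 2-fold different member of 14.

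The peptide difference itself differed between THP1 and the other 7 lines for 302 genes in the higher and 147 in the lower direction by edgeR's quasi-likelihood test. For FTL the log2 difference between THP1 and the others was −0.77.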

How the results depend on the processing

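Counts within THP1 depended mainly on the level and the fold asked for. At 1 CPM or more in either library 573 genes were higher and 283 lower, with 13 matrix members higher; at 5 CPM or more 114 were lower. At 50 CPM or more 79 were higher and 33 lower, with 17 interferon genes and 4 receptors higher. At a fold of 1.5 there were 537 higher and 320 lower genes and 23 lower ATF4 list members; at a fold of 3 there were 83 and 18 genes, 10 interferon genes, 3 ATF4 list members and 3 granule genes. Each of these follows from how many genes the setting admits. Against the other lines, edgeR called 224 genes lower with no expression filter, 228 lower with the 4 MLL-fusion lines alone, and 174 higher with a filter over peptide groups, an alternative chosen after seeing the data that tested 13043 genes; the cause was not tested for the MLL-fusion lines. The other 81 counts stayed within 1.5 times the reported value. Other scalings moved the median of all genes by −0.023 to 0.022. None of 62 single genes changed direction under 5 settings of scaling and prior count, and 9 values moved past counting error, and by total counts AZU1 and ATF4, both at a log2 ratio of −0.98, were short of 2-fold. No paired analysis by replicate number was possible because each group held 1 library; the line was the block in the test. Depth limits genes with few reads elsewhere, such as VCAN and SPP1, where a difference between lines is hard to tell from absence of expression.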

Other observations

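Some genes under the 10 CPM minimum went from near 0 to clearly detected in THP1 and are not among the genes compared above. CD1C, a lipid antigen-presenting molecule of dendritic cells, had 3 counts with 3R and 135 with Y518R, a ratio of 47.0 (15.8 to 231). FABP4, a fatty acid carrier of adipocytes and macrophages, had 8 and 182 counts, a ratio of 23.8 (11.8 to 55.9), and no count in any other line. ADAMTS4, a proteinase that cleaves versican and aggrecan, had 15 and 222 counts, a ratio of 15.5 (9.18 to 28.1). These genes were picked after their values were seen, and dendritic cell markers other than CD1C, such as CLEC9A and XCR1, had no count in either library.

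Genes that MAPK signalling induces were higher in part. DUSP6 was at 16.9 and 35.1 CPM, JUN at 28.5 and 60.5, ETV5 at 15.5 and 30.0 and ETV4 at 0.760 and 4.63, whereas FOS was at 32.8 and 41.9, SPRY2 at 28.0 and 24.8 and DUSP4 at 10.8 and 11.0. Among 12 measured members of that list, DUSP6 and JUN were 2-fold different and the median log2 ratio was 0.028. Among BCL2 family genes, BCL2L11, which encodes the death-promoting protein BIM, was at 65.8 and 36.7 CPM and MCL1 at 377 and 427, with none of 13 measured genes 2-fold different.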
